A study of Mus musculus with 6 samples.

Results

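*Trp53*, which encodes the transcription factor p53, and 8 genes whose products act back on p53 or on its inhibitor MDM2 were followed line by line in RNA-seq of mouse liver tumor cell lines. The other genes were *Mdm2*, *Mdm4*, *Rchy1*, *Ppm1d*, *Ccng1*, *Trp53inp1*, *Zmat3* and *Phlda3*. The 9 genes were chosen by name, for their place around p53, with earlier results of these data known. Each was taken as the row with that symbol. They are 9 of the 20856 genes with values, and all 9 were among the 11617 genes with enough signal to be tested. Levels are given in RPKM, the reads of a gene scaled to transcript length in kilobases and to the reads counted on all genes of the library.

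The study asked how loss of MLL3, the histone H3K4 methyltransferase encoded by *Kmt2c*, changes *Myc*-driven liver cancer cells relative to loss of p53. All 6 lines came from liver tumors of C57BL/6 mice that had received a *Myc* transposon by hydrodynamic tail vein injection, a rapid injection that carries DNA into hepatocytes. The same injection held the plasmid pX330, which transiently expresses Cas9 and a guide RNA. The guide targeted *Trp53* in 3 lines (*Myc*; sg*Trp53*, labelled Myc;sgp53/Cas9) and *Kmt2c* in 3 lines (*Myc*; sg*Kmt2c*, labelled Myc;sgMll3/Cas9), and no further treatment was given. Every line therefore carries the *Myc* transgene, no line with both targeted genes intact was compared, and the lines are not isogenic. Cells were grown on collagen and passaged until no fibroblasts could be seen. According to the study's resource list the lines of a genotype came from different mice. The labels name sg*Kmt2c* lines 2 and 3 as 2A and 2T1, and whether these share an origin was not tested.

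p53 is a transcription factor that is kept scarce by MDM2, a ubiquitin ligase that marks it for degradation, and MDM4 (MDMX), an MDM2 relative that blocks its activation domain. *Mdm2* is itself a transcriptional target of p53, so p53 activity raises the level of its own inhibitor. Further targets of p53 extend this loop through phosphatases, ubiquitin ligases and RNA-binding proteins, some of which dampen p53 while others reinforce it. In the liver p53 restrains the outgrowth of damaged or oncogene-expressing hepatocytes.

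The sg*Trp53* libraries held 5312182 to 6878625 reads and the sg*Kmt2c* libraries 3680068 to 4704539, so every sg*Kmt2c* library was the shallower. At least 18 reads stood behind every value of the 9 genes (median 351.5 reads). *Kmt2c* RNA overlapped between the genotypes, with 20.6 ± 3.17 RPKM for sg*Trp53* and 18.1 ± 7.86 RPKM for sg*Kmt2c* (SD, n = 3 each), so its level does not check that label. Cell type markers varied widely among the lines. The summed RPKM of 5 epithelial markers ranged from 62.6 to 990 in the sg*Trp53* lines and from 237 to 5811 (line 1) in the sg*Kmt2c* lines, and that of 8 fibroblast markers from 15.0 to 986 and from 0.282 to 149. That of 7 hepatocyte markers ranged from 9.73 to 36.0 and from 2.11 to 1248, mostly from *Hnf4a*, and *Alb* was at or under 4.36 RPKM in every line. That of 6 immune markers ranged from 4.65 to 17.8 and from 2.79 to 6.28, with *Cd3e* at 0 reads in all 6 libraries, and that of 4 endothelial markers did not exceed 0.284 RPKM. None of the 15 markers that could be tested (4 hepatocyte, 5 epithelial, 4 fibroblast and 2 immune) passed an adjusted p of 0.05 (limma). The macrophage receptor gene *Csf1r* was the single one of them without overlap, at 1.70 to 10.0 RPKM in sg*Trp53* and 0 to 0.967 RPKM in sg*Kmt2c* lines (unadjusted p = 0.0122 from limma), and the fibroblast marker *Dcn*, too low to be tested, ranged from 0.897 to 8.16 and from 0 to 0.248 RPKM. These were singled out after their values were seen, and the part of cell type in the values given here was not tested. Fewer cells that express a gene and less RNA of it per cell cannot be told apart in these libraries.

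Because most of the 9 genes are transcriptional targets of p53, their promoters were searched for the p53 half-site, the 10-base element that p53 binds in pairs and that reads the same on both strands. RefSeq promoter windows (GRCm38.p6, 250 bases before to 50 bases after the start) were at hand for 7 of the genes, 9 windows in all, and an exact half-site lay in 5 of the 9 windows, compared with 8.36% of 32851 windows of this length. The windows with a half-site were those of *Trp53*, *Mdm2*, *Ppm1d* and *Ccng1* and 1 of the 2 windows of *Rchy1*. *Trp53inp1* and *Zmat3* were not searched. The 60 bases around the half-site are shown for the genes in which it lay before the annotated gene, 5′ to 3′ on the strand of the gene, with the half-site in capitals. The stretches lie at chr11:69580259-69580318 on the plus strand for *Trp53*, chr10:117710910-117710969 on the minus strand for *Mdm2*, chr11:85311097-85311156 on the plus strand for *Ppm1d* and chr11:40755437-40755496 on the minus strand for *Ccng1*.
Trp53: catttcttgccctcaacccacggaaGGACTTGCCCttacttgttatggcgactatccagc
Mdm2: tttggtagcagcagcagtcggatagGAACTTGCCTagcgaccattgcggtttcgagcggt
Ppm1d: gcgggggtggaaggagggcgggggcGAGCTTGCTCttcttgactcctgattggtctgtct
Ccng1: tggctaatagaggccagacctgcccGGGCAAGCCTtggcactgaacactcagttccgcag

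The half-site began 75 bases before the start in *Trp53*, 186 in *Mdm2*, 132 in *Ppm1d* and 185 in *Ccng1*. In *Ccng1* the 10 bases directly before it form a second half-site with 1 mismatch, so that the window holds a pair of adjacent half-sites with a single mismatch over 20 bases, which 0.0883% of all windows do. The window of *Trp53* also holds the E-box CACGTG, the element bound by MYC, which 7.15% of all windows hold on either strand, and no other window of the 9 genes does. These matches describe letters only, and binding of p53 or MYC was not measured here.

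Of the 9 genes, 7 were higher in every sg*Kmt2c* line than in every sg*Trp53* line, compared with 5.72% of all genes tested in that direction and 16.2% in either direction. These were *Trp53*, *Mdm2*, *Mdm4*, *Ccng1*, *Trp53inp1*, *Zmat3* and *Phlda3*. *Rchy1* and *Ppm1d* overlapped between the genotypes. An adjusted p-value under 0.05 (limma on log2(RPKM + 1), Benjamini-Hochberg over all genes tested) was reached by 2 of the 9, *Trp53* and *Ccng1*, both higher in the sg*Kmt2c* lines, compared with 0.0516% of all genes in that direction and 0.129% in either. The unadjusted p-value from limma was under 0.05 for 7 of the 9 and for 8.58% of all genes. The median log2 fold change, sg*Kmt2c* over sg*Trp53*, was 1.90 over the 9 genes and -0.09 over all genes tested. A log2 fold change over 1 was found for 6 of the 9 and for 3.48% of all genes. With 3 lines against 3 a two-sided exact permutation test on 1 gene cannot give less than p = 0.1, the value each of the 7 non-overlapping genes had. Because the 9 genes were chosen with earlier results of these data known, their counts are no independent evidence of direction.

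**Figure D1:**
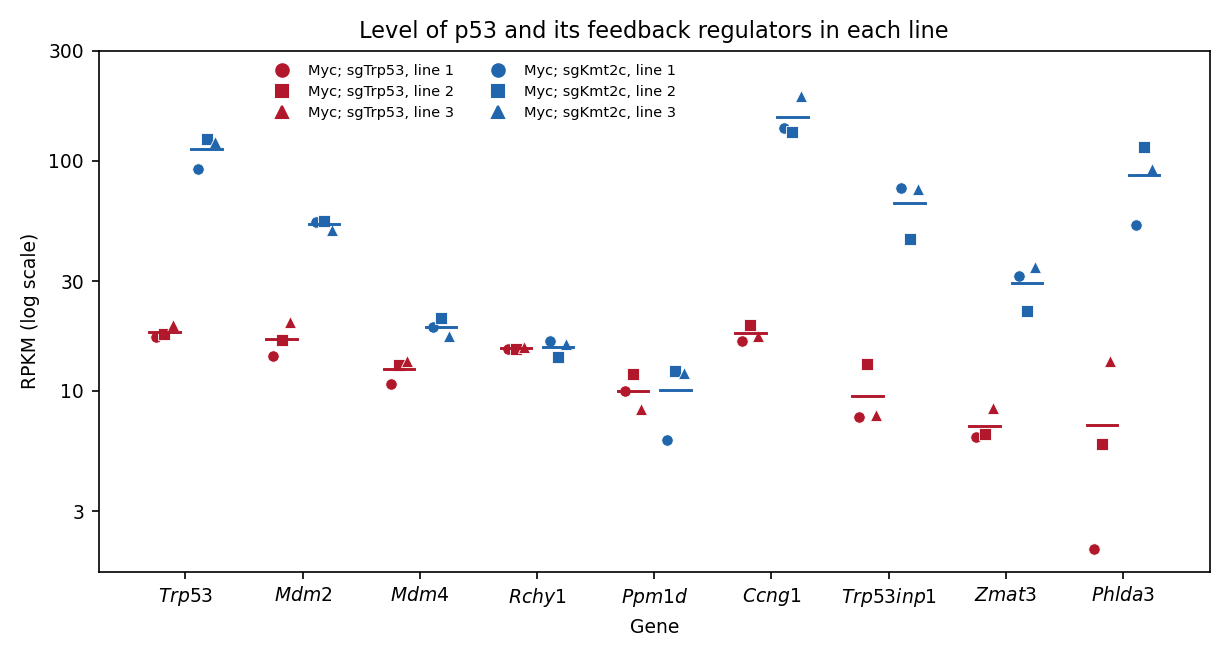
RPKM on a log scale of each of the 9 genes in each of the 6 lines, with sg*Trp53* lines in red and sg*Kmt2c* lines in blue, a symbol for each line and a bar at the mean of each genotype. The 3 blue symbols lie above the 3 red symbols for 7 genes, while *Rchy1* and *Ppm1d* overlap, and the widest spread within a genotype is that of *Phlda3* in the sg*Trp53* lines, from 2.06 to 13.5 RPKM.

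*Trp53*, the targeted gene of 3 of the lines, lies on chromosome 11 of GRCm38 from 69580359 to 69591873. Among sg*Trp53* lines 1, 2 and 3 it reached 17.2, 17.6 and 19.4 RPKM, and among sg*Kmt2c* lines 1, 2 and 3 it reached 92.2, 124 and 121 RPKM. The sg*Trp53* lines were close together, and the lowest sg*Kmt2c* line was 4.75-fold above the highest of them. *Trp53* RNA was thus lower in all 3 lines labelled as *Trp53*-targeted, but was still carried by 166 to 237 reads in each. The edited sequence itself was not analysed here. *Trp53* RNA was higher in the sg*Kmt2c* than in the sg*Trp53* lines by a log2 fold change of 2.56 (standard error 0.192, 95% interval 2.10 to 3.02, adjusted p = 0.0140 from limma). By p-value *Trp53* ranked 4 among the 11617 genes. The size of the difference hardly moved when a line was left out (2.48 to 2.69), but the adjusted p from limma did. It was 0.108 without sg*Trp53* line 1, 0.108 without line 2, 0.0936 without line 3, 0.0911 without sg*Kmt2c* line 2 and 0.0766 without line 3, and it stayed under 0.05 only without sg*Kmt2c* line 1, at 0.0118.

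*Mdm2*, the main ubiquitin ligase of p53 and a p53 target, lies on chromosome 10 from 117688888 to 117710758. Lines of the sg*Trp53* genotype held 14.1, 16.6 and 20.0 RPKM, while those of the sg*Kmt2c* genotype held 54.3, 54.6 and 49.9 RPKM. The sg*Kmt2c* lines differed among themselves by a coefficient of variation (CV, SD over mean) of 4.97%, close to the 3.83% that counting error alone would give, and the lowest of them was 2.50-fold above the highest sg*Trp53* line. Its log2 fold change amounted to 1.60 (standard error 0.197, 95% interval 1.13 to 2.07). Its adjusted p of 0.0563 from limma missed 0.05, and so it did in each fit with a line left out. The gene ranked 22 by p-value among all genes.

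*Mdm4*, whose product binds p53 and blocks its activation domain, lies on chromosome 1 from 132959484 to 133030561. The sg*Trp53* lines held 10.7, 13.0 and 13.5 RPKM, compared with 18.9, 20.7 and 17.4 RPKM for sg*Kmt2c*. The genotypes did not overlap, although the lowest sg*Kmt2c* line was only 1.28-fold above the highest sg*Trp53* line. For *Mdm4* this gave a log2 fold change of 0.58 (standard error 0.201, 95% interval 0.10 to 1.06, unadjusted p = 0.0244, adjusted p = 0.516 from limma). RefSeq places other genes over part of *Mdm4*, *Rchy1* and *Zmat3*, and since the use of strand in counting is not stated, their levels may include reads of these neighbours.

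*Rchy1* encodes PIRH2, a further ubiquitin ligase of p53, and lies on chromosome 5 from 91948904 to 91963068. Its level was 15.2, 15.2 and 15.6 RPKM with sg*Trp53*, compared with 16.5, 14.0 and 16.0 RPKM with sg*Kmt2c*. These values overlapped, and the CV of 1.39% among the sg*Trp53* lines was below the 7.44% that counting error alone would give. The log2 fold change of 0.01 had a 95% interval of -0.43 to 0.46 (adjusted p = 0.987 from limma), which leaves room for a modest difference in either direction but not for one the size of that of *Mdm2*.

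*Ppm1d* encodes WIP1, a phosphatase that removes activating phosphates from p53 and from the kinases upstream of it, and lies on chromosome 11 from 85311244 to 85347066. The sg*Trp53* lines gave 9.95, 11.8 and 8.31 RPKM, and the sg*Kmt2c* lines gave 6.15, 12.3 and 11.9 RPKM. Both the lowest and the highest value were found among the sg*Kmt2c* lines. Its fold change was -0.03 on the log2 scale, with a 95% interval of -0.78 to 0.72 (adjusted p = 0.979 from limma). Without sg*Kmt2c* line 1, the line with the lowest *Ppm1d* level, the fold change was 0.26.

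*Ccng1* encodes cyclin G1, which brings the phosphatase PP2A to MDM2 and so favours MDM2 activity, and lies on chromosome 11 from 40748552 to 40755311. Values of 16.5, 19.4 and 17.4 RPKM among the sg*Trp53* lines compared with 139, 134 and 191 RPKM among the sg*Kmt2c* lines. The gap between the genotypes was the widest of the 9 genes, with the lowest sg*Kmt2c* line 6.88-fold above the highest sg*Trp53* line. *Ccng1* was higher in the sg*Kmt2c* lines by a log2 fold change of 3.03 (standard error 0.205, 95% interval 2.54 to 3.52, adjusted p = 0.00963 from limma), and ranked 2 by p-value among all genes. Its promoter window holds the near-complete pair of half-sites shown above. An exact half-site also lay in windows of *Trp53* and *Mdm2*, whose levels did not overlap, and of *Ppm1d* and *Rchy1*, whose levels did. No half-site lay in those of *Phlda3* and *Mdm4*, whose levels did not overlap. A link between half-sites and levels was not tested. With a line left out the difference of *Ccng1* was 2.87 to 3.13 on the log2 scale. Its adjusted p from limma became 0.0818 without sg*Trp53* line 1, 0.0767 without line 2, 0.0891 without line 3, 0.0715 without sg*Kmt2c* line 2 and 0.0518 without line 3, and 0.0166 without sg*Kmt2c* line 1, the library with the highest epithelial marker sum.

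*Trp53inp1* encodes a stress-induced nuclear protein that promotes phosphorylation and activity of p53, and lies on chromosome 4 from 11156431 to 11174379. With sg*Trp53* it was measured at 7.68, 13.1 and 7.87 RPKM, and with sg*Kmt2c* at 76.0, 45.6 and 75.6 RPKM. Line 2 stood apart in both genotypes, above the other sg*Trp53* lines and below the other sg*Kmt2c* lines, and the genotypes were still separated by 3.48-fold. On the log2 scale the fold change was 2.66 (standard error 0.306, 95% interval 1.93 to 3.39), and the adjusted p of 0.0503 from limma lay just above 0.05. After quantile normalization of the libraries it lay just under it, at an adjusted p of 0.0484 from limma.

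*Zmat3* encodes an RNA-binding zinc finger protein that is a p53 target and stabilizes *Trp53* mRNA, and lies on chromosome 3 from 32334792 to 32366014. Its level was 6.31, 6.48 and 8.41 RPKM for sg*Trp53*, against 31.6, 22.2 and 34.7 RPKM for sg*Kmt2c*. All 3 sg*Kmt2c* lines lay above the sg*Trp53* lines, by at least 2.63-fold. This corresponded to a log2 fold change of 1.90 (standard error 0.250, 95% interval 1.31 to 2.50, adjusted p = 0.0662 from limma).

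*Phlda3* encodes a p53-induced protein that competes with AKT for membrane lipids, AKT being a kinase that activates MDM2, and lies on chromosome 1 from 135766119 to 135769136. Among the sg*Trp53* lines 18, 45 and 133 reads gave 2.06, 5.89 and 13.5 RPKM, and among the sg*Kmt2c* lines 354, 609 and 564 reads gave 52.4, 115 and 91.9 RPKM. The sg*Trp53* lines spanned 6.54-fold, a CV of 81.3% where counting error alone would give 16.9%, so line 3 and line 1 differed beyond counting error. The genotypes nevertheless did not overlap, with the lowest sg*Kmt2c* line 3.89-fold above the highest sg*Trp53* line. *Phlda3* had both the largest log2 fold change of the 9 genes, 3.63, and the largest standard error, 0.589 (95% interval 2.22 to 5.04, adjusted p = 0.143 from limma). Its log2 fold change became 3.06 without sg*Trp53* line 1, the line with the lowest *Phlda3* level, and 4.18 without sg*Trp53* line 3.

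**Figure D2:**
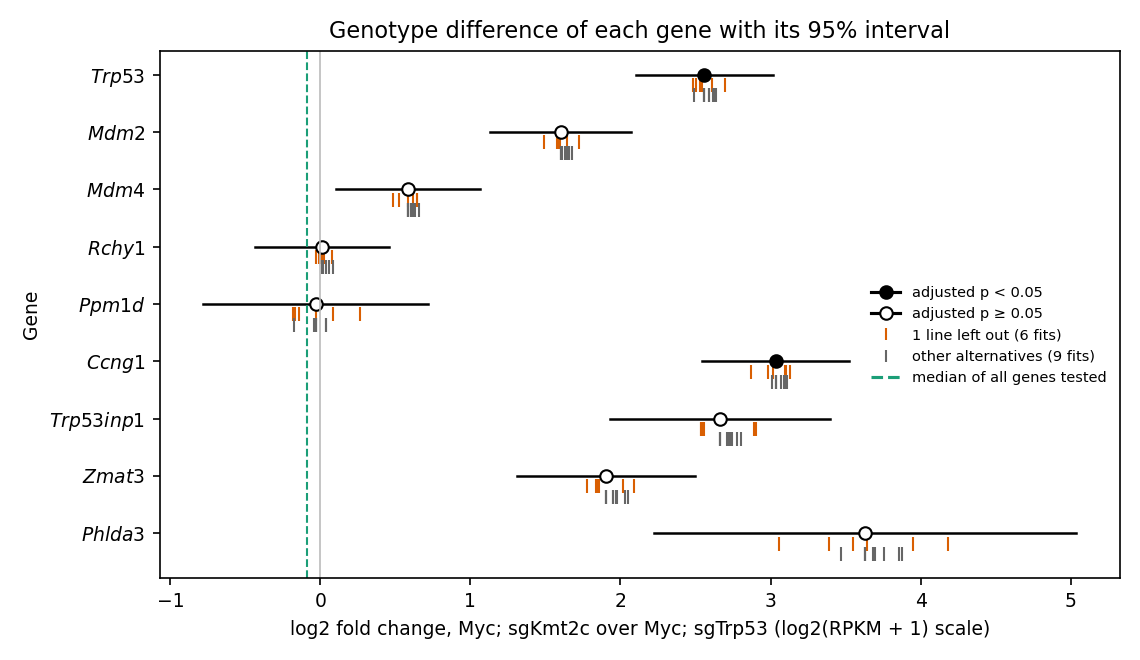
log2 fold change of each gene, sg*Kmt2c* over sg*Trp53* on the log2(RPKM + 1) scale, with its 95% interval (horizontal line). Filled circles have an adjusted p under 0.05 (*Trp53* and *Ccng1*), orange ticks give the value with 1 line left out, grey ticks the value under the other alternatives, and the dashed green line marks the median of all genes tested, -0.09. The intervals of 7 genes lie above 0, and those of *Rchy1* and *Ppm1d* span it.

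**Figure D3:**
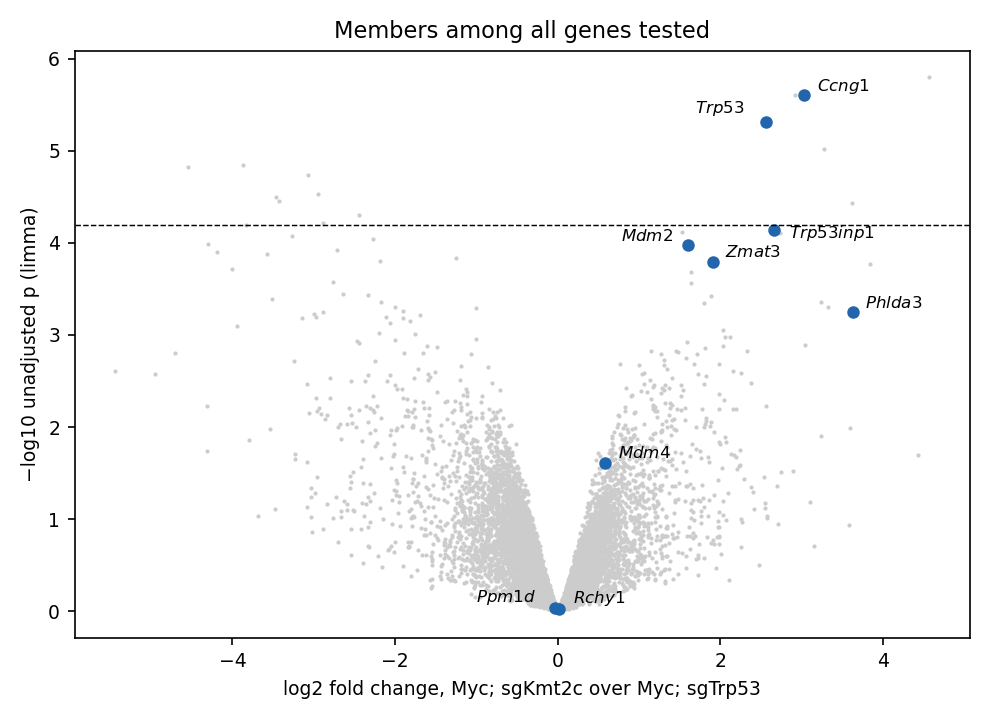
Every gene tested, by log2 fold change (x axis, sg*Kmt2c* over sg*Trp53*) and -log10 of the unadjusted p from limma (y axis), with the 9 genes in blue and the other genes in grey. *Ccng1* and *Trp53* lie above the dashed line, which marks the largest unadjusted p among the 15 genes with an adjusted p under 0.05, *Trp53inp1*, *Mdm2*, *Zmat3* and *Phlda3* lie under it on the right, and *Rchy1* and *Ppm1d* lie near the origin.

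The order of the 9 genes by level changed between the genotypes. In the sg*Trp53* lines the mean RPKM fell from *Trp53* (18.1 ± 1.17) through *Ccng1* (17.8 ± 1.49), *Mdm2* (16.9 ± 2.94), *Rchy1* (15.3 ± 0.213), *Mdm4* (12.4 ± 1.51), *Ppm1d* (10.0 ± 1.75), *Trp53inp1* (9.55 ± 3.08) and *Phlda3* (7.13 ± 5.80) to *Zmat3* (7.07 ± 1.17; SD, n = 3 each). All neighbours in this order overlapped except *Rchy1* and *Mdm4*. In the sg*Kmt2c* lines the order was *Ccng1* (154 ± 31.6), *Trp53* (112 ± 17.4), *Phlda3* (86.5 ± 31.7), *Trp53inp1* (65.7 ± 17.5), *Mdm2* (52.9 ± 2.63), *Zmat3* (29.5 ± 6.53), *Mdm4* (19.0 ± 1.68), *Rchy1* (15.5 ± 1.32) and *Ppm1d* (10.1 ± 3.44; SD, n = 3 each). Here 3 neighbouring pairs overlapped, *Trp53* with *Phlda3*, *Phlda3* with *Trp53inp1* and *Trp53inp1* with *Mdm2*. The reads on the 9 genes together made up 0.0335% to 0.0406% of a sg*Trp53* library and 0.160% to 0.200% of a sg*Kmt2c* library. Within the sg*Trp53* lines, line 1 was the lowest for 7 of the 9 genes and line 3 the highest for 6 of the 9.

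Ratios between genes within a line do not depend on how the libraries are scaled to each other, and 9 such ratios were computed. The ratio of *Mdm2* to *Mdm4* RNA was 1.32, 1.28 and 1.48 with sg*Trp53*, compared with 2.86, 2.63 and 2.87 with sg*Kmt2c*. The ratio of *Mdm2* to *Trp53* RNA ran the other way, at 0.821, 0.941 and 1.03 with sg*Trp53* and 0.588, 0.441 and 0.412 with sg*Kmt2c*. The sg*Kmt2c* lines thus held more *Mdm2* RNA for each *Mdm4* RNA and less *Mdm2* RNA for each *Trp53* RNA, with no overlap between the genotypes in either ratio. In all, 6 of the 9 ratios did not overlap (exact two-sided permutation test, p = 0.1 for each, 0.15 after adjustment over the 9 ratios). The others of these were *Mdm4* to *Trp53* (0.685 ± 0.0589 in the sg*Trp53* lines and 0.172 ± 0.0311 in the sg*Kmt2c* lines), *Ppm1d* to *Trp53* (0.559 ± 0.122 and 0.0882 ± 0.0186), *Rchy1* to *Mdm2* (0.924 ± 0.150 and 0.293 ± 0.0334) and *Zmat3* to *Trp53* (0.389 ± 0.0381 and 0.270 ± 0.0832; SD, n = 3 each). These ratios follow from the levels given above, since *Trp53* and *Mdm2* were higher in every sg*Kmt2c* line while *Ppm1d* and *Rchy1* overlapped. They are no separate result on any of the 9 genes. Such ratios were not computed for other genes, so the count of 6 has no background to be read against. *Trp53*, the denominator of most of the ratios, is the targeted gene of the sg*Trp53* lines. The ratios to *Trp53* of *Ccng1* (0.986 ± 0.107 and 1.39 ± 0.268), *Phlda3* (0.382 ± 0.290 and 0.753 ± 0.182) and *Trp53inp1* (0.532 ± 0.185 and 0.606 ± 0.228) overlapped, with p = 0.2, 0.2 and 0.7 in the exact permutation test.

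**Figure D4:**
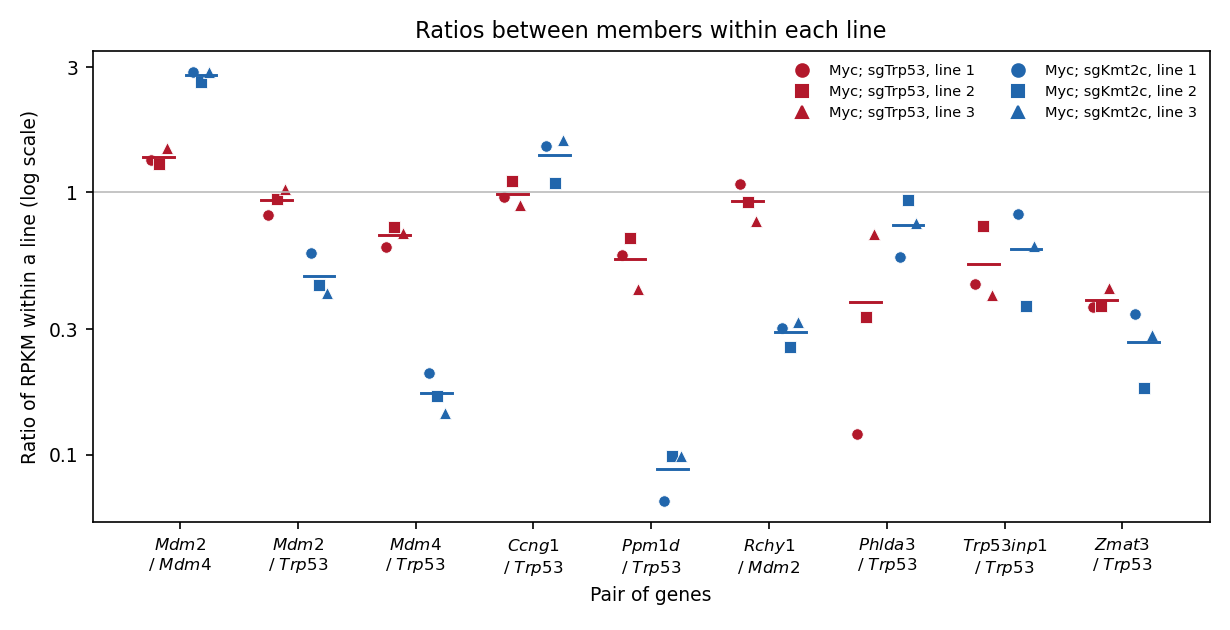
Ratio of RPKM between pairs of the 9 genes within each line, on a log scale, with sg*Trp53* lines in red, sg*Kmt2c* lines in blue and a bar at each mean. *Mdm2* over *Mdm4* lies higher in all 3 sg*Kmt2c* lines, *Mdm2*, *Mdm4*, *Ppm1d* and *Zmat3* over *Trp53* and *Rchy1* over *Mdm2* lie lower in all 3, and the remaining 3 ratios overlap.

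The genes with the pattern most like that of *Trp53* were sought by Pearson's r of log2(RPKM + 1) over the 6 libraries, which fall into 2 genotypes, so that r mostly measures how evenly a gene separates them. Outside the group the closest were *Btg2* (r = 0.998), an antiproliferative p53 target, *B230206L02Rik* (0.996), *Psrc1* (0.995), *9030617O03Rik* (0.989) and the Hippo pathway kinase gene *Lats1* (0.988). Closest to *Mdm2* were *9030617O03Rik* (r = 0.997), the annexin gene *Anxa8* (0.991), *Lats1* (0.988), *Llph-ps2* (0.988) and *Rnf169* (0.988). Of the 9 genes themselves, *Ccng1* (0.991) and *Mdm2* (0.983) were most like *Trp53*, while *Ppm1d* (0.036) and *Rchy1* (0.018) showed next to no relation to it. A close pattern did not mean a change of the same size, since the log2 fold change was 1.53 for *Btg2* and 0.43 for *Lats1*.

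The wider pathway was described by lists of genes that act on p53 or MDM2 and of p53 targets outside the 9 genes. None of 8 kinases that act on p53 passed an adjusted p of 0.05 (limma), and none had an unadjusted p under 0.05. Their median log2 fold change was -0.25, and 1 was lower and 0 higher in every sg*Kmt2c* line (16.2% of all genes in either direction). The lowest p-value was that of *Mapk14*, the p38 kinase (89.8 ± 8.50 and 61.1 ± 19.0 RPKM in the sg*Trp53* and sg*Kmt2c* lines, SD, n = 3 each). The checkpoint kinase *Chek2* came next (81.9 ± 34.9 and 52.5 ± 16.9 RPKM, SD, n = 3 each). None of 10 other ubiquitin ligases and deubiquitinases of p53 or MDM2 passed either threshold (median log2 fold change 0.16). Of these, 2 were higher and 0 lower in every sg*Kmt2c* line (16.2% of all genes in either direction). The closest to a threshold were *Mkrn1* (11.1 ± 2.58 and 15.9 ± 1.45 RPKM) and *Ube4b* (61.5 ± 13.3 and 38.3 ± 19.0 RPKM, SD, n = 3 each). Of 12 cofactors and modifying enzymes none passed an adjusted p of 0.05 (limma), and their median log2 fold change was -0.30. An unadjusted p under 0.05 was found for 3 (8.58% of all genes), of which 2 were lower and 1 higher with sg*Kmt2c*. In every sg*Kmt2c* line 4 were lower and 1 higher (16.2% of all genes in either direction). The 2 lower ones were the methyltransferase gene *Prmt5*, at 90.5 ± 10.3 and 62.7 ± 10.7 RPKM, and *Trp53bp1*, at 12.4 ± 4.31 and 6.86 ± 1.21 RPKM (SD, n = 3 each).

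Of 5 MDM2 inhibitors 1 passed an adjusted p of 0.05 (limma), compared with 0.129% of all genes in either direction. This was *Cdkn2a*, whose locus encodes p19Arf, which binds MDM2, and p16Ink4a. With 405, 451 and 424 RPKM for sg*Trp53* and 21.2, 49.3 and 51.3 RPKM for sg*Kmt2c*, it fell by 3.46 on the log2 scale (adjusted p = 0.0359 from limma), opposite in direction to the 7 non-overlapping genes around p53. The adjusted p of *Cdkn2a* from limma was 0.202, 0.172 or 0.189 without sg*Trp53* line 1, 2 or 3, 0.0911 or 0.0778 without sg*Kmt2c* line 2 or 3, 0.00730 without sg*Kmt2c* line 1 and 0.134 with sg*Kmt2c* lines 2 and 3 merged. It was also above 0.05 with a pseudocount of 0.1 (0.0577), without the filter on low values (0.0913) and with voom (0.0718). The ribosomal protein genes *Rpl5* (338 ± 28.4 and 312 ± 8.07 RPKM) and *Rpl11* (1222 ± 223 and 1050 ± 345 RPKM; SD, n = 3 each), whose products also bind MDM2, overlapped. The p53 paralog *Trp73* had 0 reads in all 6 libraries, which leaves room for an expected count of up to 3 in each. *Trp63* had at most 3 reads except 20 in sg*Kmt2c* line 2. Neither could be tested.

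Of 20 effector targets of p53 outside the 9 genes, 19 could be tested. The log2 fold change was above 0 for 18 of the 19, with a median of 1.34, compared with -0.09 over all genes tested. Of the 19, 14 were higher (5.72% of all genes tested) and 0 lower in every sg*Kmt2c* line. An adjusted p under 0.05 was reached by 2, both higher (0.0516% of all genes), *Psrc1* (9.34 ± 0.878 and 77.4 ± 11.4 RPKM, log2 fold change 2.92, adjusted p = 0.00963 from limma), which encodes a microtubule-associated protein, and *Eda2r* (1.03 ± 0.887 and 23.0 ± 5.58 RPKM, log2 fold change 3.62, adjusted p = 0.0359 from limma), which encodes a receptor of the tumor necrosis factor family. Without sg*Trp53* line 1, 2 or 3 the adjusted p of *Psrc1* from limma was 0.0818, 0.0767 or 0.0891, without sg*Kmt2c* line 2 or 3 it was 0.0715 or 0.0518, and without sg*Kmt2c* line 1 it was 0.0118. That of *Eda2r* was 0.0818, 0.158 or 0.200 without sg*Trp53* line 1, 2 or 3 and 0.0845, 0.171 or 0.0891 without sg*Kmt2c* line 1, 2 or 3 (limma), and it was 0.0535 with a pseudocount of 0.5, 0.113 with 0.1, 0.108 without the filter on low values and 0.101 with voom. With sg*Kmt2c* lines 2 and 3 merged neither passed. Earlier results of these data for p53 targets were known when this list was made, so its count is no independent evidence of direction.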

How the data were processed

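RNA was sequenced from 3 *Myc*; sg*Trp53* and 3 *Myc*; sg*Kmt2c* lines. The authors trimmed reads (Trimmomatic), aligned them to GRCm38 (STAR), counted them per gene (HTSeq) and deposited RPKM values based on 1 transcript length per gene. The table has 21065 rows, 209 of them without values, and 6 sample columns of other samples that were not used. A second deposited table holds the authors' DESeq2 1.8.2 comparison (mean count, fold change, test statistic and p-values) and was not used. RPKM multiplied by length gave whole reads for 100% of values above 0 (within 0.05 of a read), from which depth and counting error were taken. Intervals for reads cover counting error only. Replicate libraries were distinct (chi-square of their reads at least 29.1 for each gene on average, where sampling noise gives about 1).

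The test was limma 3.58.1 in R 4.3.3 (eBayes with trend) on log2(RPKM + 1), fitted to the 11617 genes that had 1 RPKM or more in at least 3 libraries. Genotype was the only term, and p-values were adjusted by Benjamini-Hochberg. The fold change understates changes of low genes. The limma fit was tried on simulated data with known changes larger than those of most of the 9 genes, so smaller changes were not covered. The 9 genes and the lists were chosen with earlier results of these data known. Named are the 9 genes, *Kmt2c*, the 5 genes most like *Trp53* and *Mdm2*, *Trp63* and *Trp73*, and *Alb*, *Hnf4a*, *Cd3e*, *Csf1r* and *Dcn* as markers. From each list those past the threshold and at most 2 others, with the lowest p-values, are named. Alternatives changed the pseudocount, filter, scaling, moderation, test (voom on recovered reads), a replicate block, each line left out and sg*Kmt2c* lines 2 and 3 merged. Promoters came from RefSeq (GRCm38.p6).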

Additional observations from a re-analysis of the deposited data

How the results depend on the processing

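*Trp53* and *Ccng1* were the genes of the 9 past an adjusted p of 0.05 (limma) in 7 of the 9 alternatives that kept all lines, with *Trp53inp1* added by quantile normalization. With sg*Kmt2c* lines 2 and 3 as a single sample, 0 of the 9 and 0 of all genes passed, with 7 of the 9 and 1031 of all genes at an unadjusted p under 0.05. With 1 line left out, 0 to 2 of the 9 and 0 to 8 of all genes passed (6 or 7 of the 9 and 563 to 1477 genes unadjusted), compared with 2 and 15 with all lines. The count over all genes was 6 with a pseudocount of 0.1, 5 without the filter and 4 with voom. The median log2 fold change of the 9 genes was 2.05 with voom and 1.78 to 2.09 with 1 line left out.

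Replicate numbers are shared between the genotypes. The deviations of same-numbered lines correlated at 0.192, 0.399 and 0.0316, and those of differently numbered lines at -0.284 to 0.152. Whether same-numbered lines share more than a number was not tested. Under the replicate block 0 of the 9 and 0 of all genes passed (limma), with 6 of the 9 and 1085 of all genes at an unadjusted p under 0.05.

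The small differences of *Ppm1d* and *Rchy1* changed sign. That of *Ppm1d* was 0.0407 with median-of-ratios scaling and 0.0374 with quantile normalization, and -0.184 to 0.261 with 1 line left out, and that of *Rchy1* was -0.0317 to 0.0788 with 1 line left out. The direction of the other 7 genes was the same in all 15 alternatives. The cause of these shifts was not tested. Depth limits *Phlda3* most, with a counting CV of 16.9% in the sg*Trp53* lines.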
